A study of Homo sapiens with 2 samples.

Results

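The genes described here are 37 genes that have been reported as direct targets of the microRNA miR-34a and that lie outside its best known target groups (the CDK, MYB, MYC, Notch, E2F and SIRT genes). They were taken by gene symbol, among 19775 genes that the array's annotation names with a single symbol, and all 37 were found, on 97 of the 54613 probe sets other than controls. A probe set is a group of short probes on the array that together measure one transcript region. The study measured mRNA in K562 cells, an established human erythroleukemia line grown in suspension. One culture had received 3 µg of a control mimic, which per the study's design matches no human gene, by nucleofection, in which an electric pulse opens the cells to nucleic acid, and the other 3 µg of a miR-34a mimic, and total RNA was taken from both after 24 hours. There was 1 array per group, so each value is a single measurement with no replicate check and limited precision, and no test between the groups was possible.

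MicroRNAs are short RNAs that guide Argonaute proteins to messenger RNAs. Pairing between the seed of the microRNA, near its 5′ end, and a matching site, usually in the 3′ untranslated region, lowers the stability of the mRNA, its translation, or both. An array reads only the mRNA level, so a target held back in translation alone would show no difference here. miR-34a is induced by the tumour suppressor p53 and is known for restraining proliferation, and its reported targets range from growth factor receptors to enzymes of the secretory pathway.

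The mimic copies the mature strand hsa-miR-34a-5p, which RefSeq places at chr1:9151735-9151756 on the minus strand of GRCh38.p14, in the gene MIR34A. It is shown with the mature microRNAs of the RefSeq-based table used that carry the same seed. A family member missing from that table is not shown. A match to this seed is what the reported targets are taken to share. Capitals mark the seed, bases 2 to 8, and each sequence runs 5′ to 3′.
hsa-miR-34a-5p: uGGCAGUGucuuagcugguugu
hsa-miR-449a: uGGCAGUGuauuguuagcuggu
hsa-miR-449b-5p: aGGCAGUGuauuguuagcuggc
These are the 3 mature sequences with the seed GGCAGUG among 2545 in the RefSeq-based table used. In a further pair of relatives the same 7 letters start at base 3 instead of base 2, so that their own bases 2 to 8, again in capitals, differ.
hsa-miR-34b-5p: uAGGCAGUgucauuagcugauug
hsa-miR-449c-5p: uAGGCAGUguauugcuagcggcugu
A perfect seed match in an mRNA reads CACUGCC. Sites in the untranslated regions of the target genes were not analysed here, so which of the 37 mRNAs carry one in K562 cells is not part of the data. The array's own probe set for MIR34A read 57.2 and 59.8, and it does not detect a transfected mimic.

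The arrays had medians of 39.5 (control mimic) and 40.1 (miR-34a mimic) over 54675 probe sets. Background was set at 75.4, the highest signal of 27 probe sets for bacterial transcripts. All 5 erythroid marker genes with probe sets of their own, GATA1, KLF1, TFRC, TAL1 and HBE1, were above background on both arrays, and 6 of 15 markers of other cell types were too. Of those 6, CD3D read 953.6 and 351.9, EPCAM 1426 and 654 and PECAM1 190.6 and 161.5. COL1A1 read 120.8 and 118.6, while LYZ read 518 and 563 and the epithelial marker KRT18 3969 and 4577. The summed signal of all 15 was 7372 with the control mimic and 6648 with miR-34a. In bulk RNA from a single line, fewer cells that carry a transcript and less of it per cell cannot be told apart. CD3E, CD8A, CD14, CDH1 and CDH5 stayed within background. The 3′ to 5′ signal ratio of GAPDH, which grows with RNA degradation, was 3.07 with the control mimic and 3.53 with miR-34a. The part of marker genes or RNA integrity in the results was not tested.

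A log2 ratio here is log2(signal + 14.9) with miR-34a minus the same with the control mimic, after subtraction of the median over expressed genes. A gene counted as expressed if at least 1 of its probe sets had a mean level, over the pair of arrays, no lower than the median of all probe sets other than controls, a signal of about 39.0. It took the value of its brightest such probe set. Of the 37 targets, 28 were expressed and 9 were not. Of the 28, 20 had a log2 ratio below 0 and 8 above 0. By the centring, 50.0% of the 12774 expressed genes lay below 0. The median of the 28 was -0.32, against 0.0 over all expressed genes, and their range was -0.99 to 0.46. At least 1.5-fold lower were 5 of the 28, where 3.01% of all expressed genes were, and 0 were at least 1.5-fold higher, where 3.28% were. These counts include targets whose signals lie within background on both arrays, 7 of the 28 (CD274, SNAI1, KLF4, SOX2, STX1A, NAV1 and RRAS). Of those 7, RRAS and SOX2 were under the filter's signal with miR-34a and passed through the control array alone, where they were higher, so they had to come out lower. Of the 28, 19 were above background on both arrays, a choice that in turn drops genes taken below background by a change. Of these 19, 13 were lower and 6 higher, with a median of -0.36, where 51.4% of the 9639 expressed genes of that kind were lower. At least 1.5-fold lower were 4 of the 19 (TMEM109, ACSL4, PEA15 and UBP1), against 2.92% of such genes. At least 1.5-fold higher were 0, against 2.66%. ACSL4 is counted on its brightest probe set, and its other expressed probe sets were above 0. At 2-fold, 0 of the 28 were lower and 0 higher, against 0.548% and 0.595% of all expressed genes. For scale, the cell cycle kinase genes CDK6 and CDK4 and the deacetylase gene SIRT1, which are also reported miR-34a targets, had log2 ratios of -1.64, -1.59 and -1.17, so each of the 28 targets lay nearer to 0 than these.

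**Figure D1:**
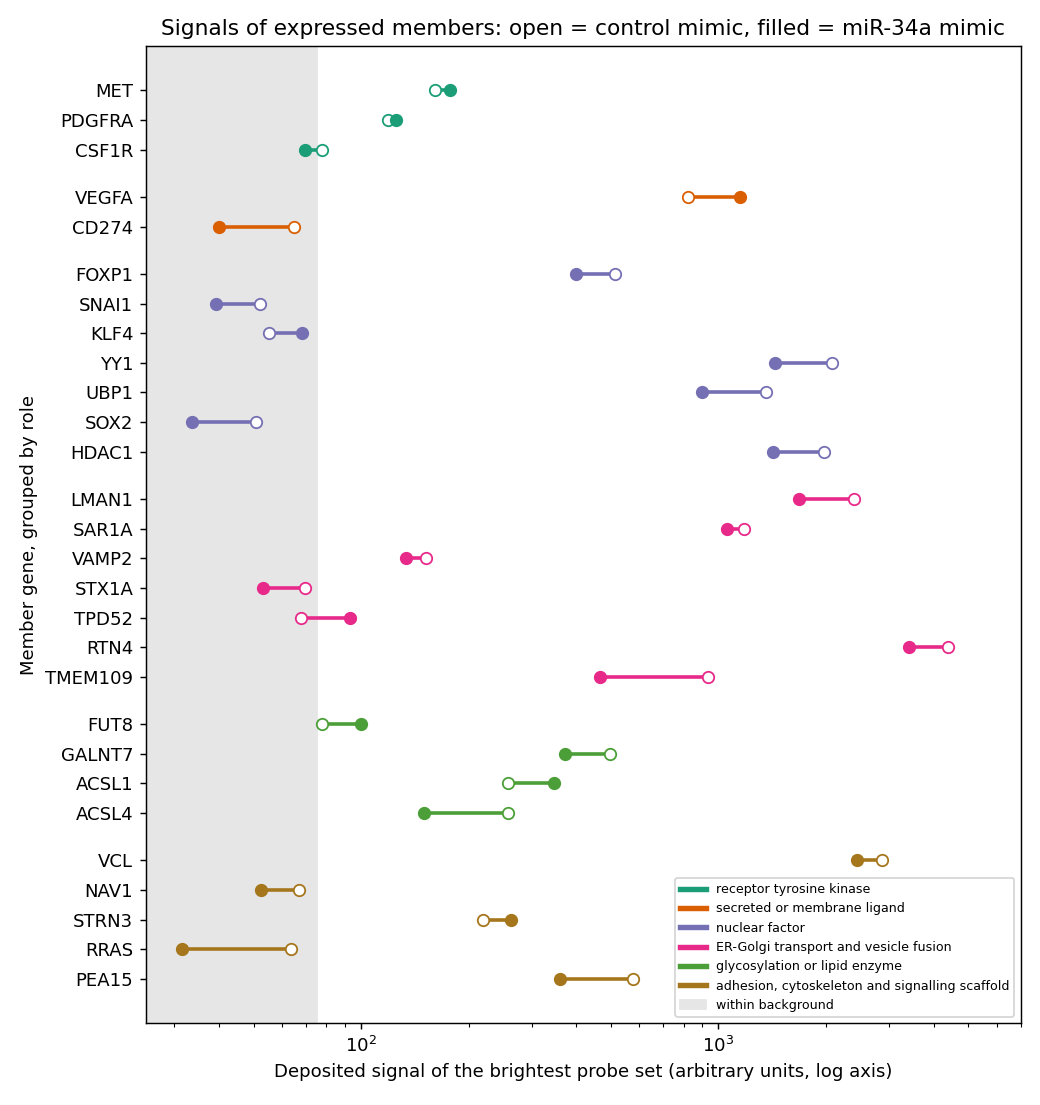
Deposited signal (arbitrary units, log axis) of the brightest probe set of each of the 28 expressed targets, grouped by role, with open circles for the control mimic, filled circles for the miR-34a mimic and grey for signals within background. In 20 genes, 6 of them within background, the filled circle lies to the left, with the widest gap above background in TMEM109 (932 and 465), and in 8, VEGFA among them (824 and 1146), it lies to the right.

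Noise depends on signal level, so each target was also placed among the 1000 probe sets of other genes nearest to it in mean level. The log2 ratios of these neighbours ran from -0.31 (5th percentile) to 0.27 (95th) at the level of RTN4 and from -0.50 to 0.57 at that of RRAS. A group of 10 targets, TMEM109, RRAS, ACSL4, PEA15, UBP1, CD274, YY1, LMAN1, HDAC1 and RTN4, lay below the 5th percentile of their neighbours, among the 28 expressed, where 4.79% of all expressed genes did so. RRAS and CD274 in this group were within background on both arrays, and RRAS passed the filter through the control array alone. Without these, 8 of the 19 targets above background on both arrays lay below the 5th percentile, where 4.46% of such genes did. ACSL4 is among the 8 on its brightest probe set, and its other expressed probe sets were above 0. VEGFA was the 1 target above the 95th percentile, where 5.28% of all expressed genes were.

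**Figure D2:**
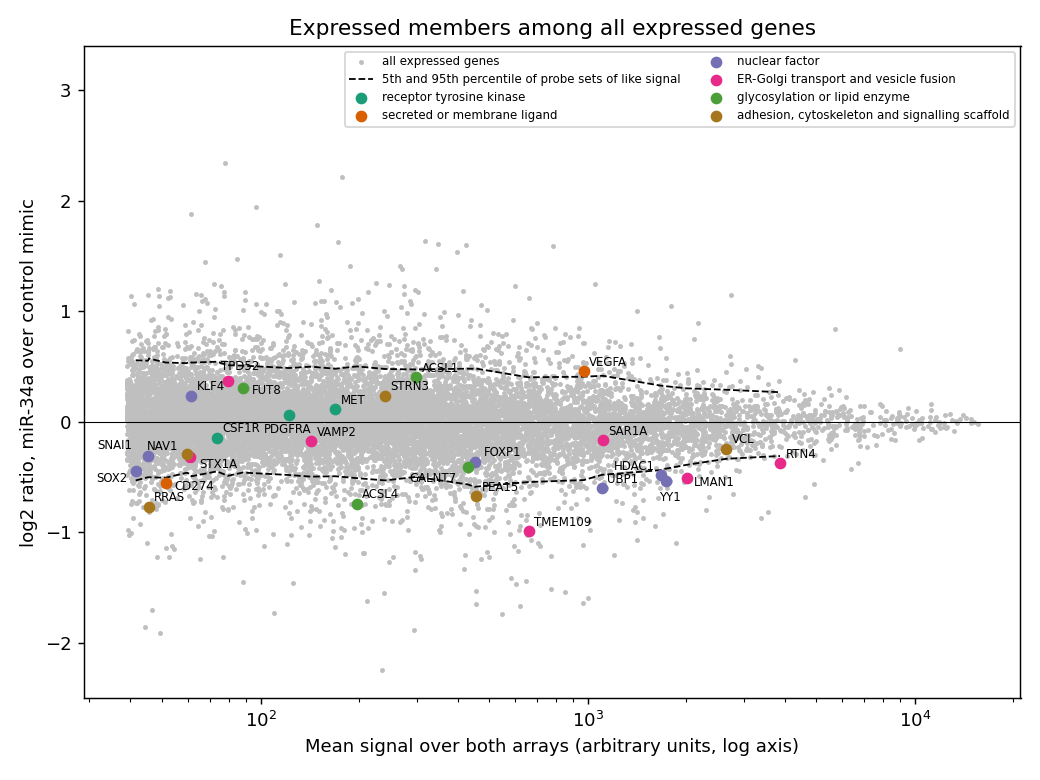
Log2 ratio (miR-34a over control mimic) against mean signal over both arrays (arbitrary units, log axis) for the 12774 expressed genes in grey and the 28 expressed targets in the colour of their role. Dashed lines join the 5th and 95th percentiles of the probe sets of like signal at each target. The points of 10 targets, RRAS and CD274 within background among them, lie below the lower line and VEGFA lies above the upper line.

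On the brightest probe sets, the counts were not alike at all signal levels. Of the 28, 12 had a mean level over 4 times background (301.6), and 11 of these 12 were lower, with a median of -0.45, where 54.7% of all expressed genes at that level were lower. Another 8 lay between background and that level. Of these, 2 (VAMP2 and ACSL4) were lower, with a median of 0.17 for the 8, where 47.2% of all genes were lower. VAMP2, ACSL4, MET and FUT8 of this class have probe sets on both sides of 0, so its count depends on the probe set. FOXP1 and SAR1A of the brightest class are mixed as well. The last 8 lay between the filter and background, and 7 of them were lower, with a median of -0.32, where 46.5% of all genes were. In this dimmest class 7 of the 8 read within background on both arrays, and RRAS and SOX2, both among the 7 lower, are in it only through their control signal, so nothing is read from its count or median.

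The receptor tyrosine kinases, which pass growth factor signals into the cell, stood near background throughout. MET, the receptor for hepatocyte growth factor, read 161.4 with the control mimic and 177.0 with miR-34a, a log2 ratio of 0.11. Its second expressed probe set read 63.3 and 45.6, within background, and gave -0.38, so the direction of MET depends on the probe set. PDGFRA, a receptor for platelet-derived growth factor, read 118.7 and 125.5, a log2 ratio of 0.06, and its dimmer expressed probe set gave 0.25. CSF1R, the receptor of macrophage colony-stimulating factor, read 77.8 and 69.5, a log2 ratio of -0.14 that crosses the background level. None of these 3 receptors lay outside the 5th to 95th percentile of probe sets of like signal on its brightest probe set. AXL and PDGFRB were not expressed by the filter, and their highest signals were 35.9 and 31.1.

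The other receptor tyrosine kinases and their partners were divided in direction. Of 44 further receptor tyrosine kinase genes 25 were expressed, 14 lower and 11 higher, with a median of -0.03. The lowest and highest above background on both arrays were EPHB6, an ephrin receptor without kinase activity, at -0.71, and the fibroblast growth factor receptor gene FGFR3 at 0.75. Of 19 expressed genes for ligands and adaptors of these receptors 7 were lower and 12 higher, with a median of 0.08. There the adaptor gene GAB2 stood at -0.67 and PDGFB, which encodes a ligand of PDGFRA and PDGFRB, at 0.86.

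Among the ligands, VEGFA was the target with the largest increase. This gene encodes the growth factor that drives blood vessel formation, and its brightest probe set read 824 with the control mimic and 1146 with miR-34a, a ratio of 1.39 in signal and 0.46 on the log2 scale. All 4 of its expressed probe sets were above 0, between 0.04 and 0.46. Every probe set of VEGFA was thus higher with miR-34a, although by little on the second brightest (189.1 and 196.2). Of the same growth factor family, PGF had 0.15 and VEGFB 0.01. CD274, which encodes the immune checkpoint ligand PD-L1, read 65.0 and 39.9, a log2 ratio of -0.55 with both signals within background. INHBB, a subunit of activin and inhibin, WNT1, a Wnt ligand, and EFNB1, an ephrin, had signals of at most 18.1 on either array, and no change is read from them. Of 15 expressed genes of the activin and TGF-beta pathway 8 were lower and 7 higher, with a median of -0.03, from the SMAD corepressor gene SKI at -0.66 to the receptor gene ACVR1 at 0.40.

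The nuclear factors above background were lower on their brightest probe sets. Of 8 nuclear factors, 7 were expressed, 6 of them lower and 1 higher, with a median of -0.45. SNAI1, SOX2 and KLF4 among these 7 read within background. SOX2 passed the filter through the control array alone, so it had to come out lower, and the median is its value. Nothing is read from this count or median. YY1, a zinc finger factor that can activate or repress transcription, went from 2084 to 1439, a log2 ratio of -0.54. Its 5 expressed probe sets gave values between -0.54 and -0.36, an SD of 0.07 over probe sets, so the decrease was of like size at signals from 122 to 2084 on the control array. UBP1, a transcription factor of the grainyhead family, went from 1359 to 897, a log2 ratio of -0.60 on its single probe set. HDAC1, a histone deacetylase that acts in several repressor complexes, went from 1970 to 1417, a log2 ratio of -0.48, also on 1 probe set. All 3 lay below the 5th percentile of the 1000 probe sets nearest in signal, YY1 on its brightest probe set. The other expressed probe sets of YY1 were at percentiles from 7.1 to 10.7.

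FOXP1, a forkhead repressor of blood and immune cells, gave different answers on different probe sets. The brightest read 513.0 and 398.6, a log2 ratio of -0.36 that lies within the range of probe sets of like signal. The next pair read 452.7 and 236.2, and 258.2 and 137.5, with log2 ratios of -0.91 and -0.85. Both of these lay at or below the 1.0th percentile of probe sets of like signal. The remaining expressed pair read between 61.0 and 95.3 and gave 0.03 and 0.26. The SD over the 5 was 0.52, well above the 0.24 that pools the spread between probe sets over all genes with 2 or more. Which transcript forms of FOXP1 these probe sets read was not analysed here.

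SNAI1, the Snail repressor of epithelial genes, read 52.0 and 39.3, and SOX2, a pluripotency factor, 50.8 and 33.6, with log2 ratios of -0.31 and -0.45. KLF4, a zinc finger factor of the same reprogramming set as SOX2, read 55.3 and 68.2, a log2 ratio of 0.23. All of these signals lie within background, and neither a decrease nor an increase is read from them. NANOG had no signal above 17.6. Of 10 expressed genes among other pluripotency and epithelial to mesenchymal transition factors, 6 were lower and 4 higher, with a median of -0.28. ZFP42, DPPA4, PRDM14 and CDH2 of these 10 read within background on both arrays, so nothing is read from this count or median. At least 1.5-fold lower were 3 (VIM, FN1 and ZEB1) and at least 1.5-fold higher was 1 (ZEB2), where 3.01% and 3.28% of all expressed genes were. ZEB1 read 92.7 and 52.7, the latter within background. VIM, which encodes the intermediate filament vimentin, went from 4714 to 2684 (-0.82), while the repressor gene ZEB2 stood at 0.59.

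Most partners of HDAC1 were also lower on their brightest probe sets, by smaller amounts. Of 25 expressed genes for other subunits of the NuRD, SIN3, CoREST and MiDAC complexes 20 were lower and 5 higher, with a median of -0.18, and 0 were at least 1.5-fold lower. MBD3, a NuRD subunit, was the lowest at -0.39, with another of its probe sets at 0.08. DNTTIP1, a subunit of MiDAC, was the highest at 0.61 and passed 1.5-fold.

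There were 8 targets that act in transport between the endoplasmic reticulum (ER) and the Golgi, in vesicle fusion or as ER membrane proteins. Of these 8, 7 were expressed, 6 lower and 1 higher, with a median of -0.32. SAR1A and VAMP2 among the 6 have probe sets of both signs. STX1A, whose value is the median, read within background, and TPD52, the 1 higher, started there. Nothing is read from this count or median. TMEM109, which encodes a membrane protein of the ER and nuclear envelope also called mitsugumin-23, had the largest decrease of all 28. Its single probe set read 932 with the control mimic and 465 with miR-34a, a ratio of 0.499 in signal and -0.99 on the log2 scale, which was at the 1.4th percentile of probe sets of like signal. After the pseudocount this falls just short of 2-fold. LMAN1, the cargo receptor ERGIC-53 that carries glycoproteins such as coagulation factors out of the ER, went from 2392 to 1683, a log2 ratio of -0.51. Its second expressed probe set read 71.2 and 42.1, within background, and gave -0.60. RTN4, the reticulon Nogo that shapes ER tubules, went from 4395 to 3403, a log2 ratio of -0.38. The 3 bright probe sets of RTN4 gave -0.38, -0.41 and -0.44, each between the 2.2nd and 2.5th percentile of probe sets of like signal, and a dim one (65.0 and 62.2) gave -0.06.

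SAR1A, the GTPase that starts the COPII coat at ER exit sites, had probe sets that went in opposite directions. The brightest read 1177 and 1055 (-0.16), the next 478.3 and 663.9 (0.45), and the dimmest 58.9 and 42.2 (-0.38, within background). Their mean was -0.03, so no direction can be given for SAR1A. VAMP2, a vesicle SNARE of regulated secretion, read 152.0 and 133.9, a log2 ratio of -0.18, with its other expressed probe sets at -0.11 and 0.38. STX1A, its partner SNARE at the plasma membrane, read 69.5 and 53.2, a log2 ratio of -0.32 within background. This value is also the median given above for the expressed transport targets. SYT1, the calcium sensor of synaptic vesicles, had no signal above 34.2. TPD52, a coiled-coil protein of vesicle traffic that is often amplified in tumours, read 67.9 and 92.8, a log2 ratio of 0.37 that starts within background.

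The other genes of these pathways were more often higher than lower. Of 31 other expressed genes of ER to Golgi transport 12 were lower and 19 higher, with a median of 0.06. SURF4, another cargo receptor of the ER, was the lowest above background on both arrays, from 1701 to 916 (-0.89), and its 3 probe sets gave values between -0.89 and -0.72. SEC23A, a COPII coat subunit, was the highest at 0.57. Of 31 other genes of vesicle fusion 9 were lower and 22 higher, with a median of 0.16, from the SNARE gene YKT6 at -0.99, whose second probe set gave 0.26, to SEC22B at 0.55. Of 10 other genes of ER shape 3 were lower and 7 higher, from REEP4 at -0.22 to RTN2 at 0.41.

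The enzymes split evenly, 2 lower and 2 higher of 4. GALNT7, an enzyme of mucin type O-glycosylation, read 495.8 and 371.3, a log2 ratio of -0.41, and its other probe set read 351.8 and 250.1 (-0.48). Both probe sets of GALNT7 were lower by like amounts, at percentiles 10.1 and 6.0 of probe sets of like signal. FUT8, which adds core fucose to N-glycans, gave 0.30 on one probe set (77.7 and 100.1) and -0.43 on the other (94.3 and 66.4), so no direction can be given. Of 26 other expressed genes of glycan synthesis 15 were lower and 11 higher, with a median of -0.03, from the sialyltransferase gene ST6GAL1 at -0.84 to the mannosidase gene MAN2A1 at 0.37 among those above background on both arrays.

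ACSL1 and ACSL4 activate long-chain fatty acids by joining them to coenzyme A, ACSL4 with a preference for arachidonic acid. ACSL1 read 257.1 and 347.3, a log2 ratio of 0.40, with its dim probe set (69.2 and 74.8) at 0.08. ACSL4 read 258.0 and 149.6, a log2 ratio of -0.74 at the 1.8th percentile of probe sets of like signal. The other probe sets of ACSL4 did not share this. One read 126.8 and 162.6 (0.32), and the dimmest read 58.6 and 61.5 (0.05), within background. The paralogs thus differed in direction on their brightest probe sets, by 0.40 against -0.74, while the means over all expressed probe sets were 0.24 and -0.13. Of 19 other expressed genes of fatty acid activation and use 11 were lower and 8 higher, with a median of -0.07. DGAT1, which makes triglycerides, went from 217.5 to 70.5 (-1.45), the latter within background, the fatty acid transporter gene SLC27A4 was at -0.63, and CPT2, of mitochondrial fatty acid import, was at 0.76.

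Among the adhesion, cytoskeleton and signalling genes 5 of 7 were expressed, 4 lower and 1 higher, with a median of -0.29. RRAS and NAV1, among the 4 lower, read within background. RRAS passed the filter through the control array alone, so it had to come out lower. The median is the value of NAV1, whose expressed probe sets run from -0.50 to 0.26. Nothing is read from this count or median. PEA15, a death effector domain protein that holds ERK in the cytoplasm, was lower by like amounts on both of its probe sets. They read 577.0 and 359.0, and 327.4 and 185.4, with log2 ratios of -0.67 and -0.78 at the 3.2th and 1.4th percentile of probe sets of like signal. VCL, which encodes the focal adhesion protein vinculin, went from 2875 to 2445, a log2 ratio of -0.24 within the range of probe sets of like signal. RRAS, a small GTPase of integrin signalling, read 63.7 and 31.6, a log2 ratio of -0.77 with both signals within background. NAV1, a microtubule-associated protein of neurons, also read within background, at 67.0 and 52.6 (-0.29). STRN3, a striatin that directs phosphatase 2A within the STRIPAK complex, read 219.5 and 262.9, a log2 ratio of 0.24. L1CAM, a neural adhesion molecule, and ARAP2, a GTPase-activating protein for ARF6, had no signal above 36.8.

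Other genes of these structures had medians near 0. Of 18 expressed focal adhesion genes 8 were lower and 10 higher, with a median of 0.02, from the focal adhesion kinase gene PTK2 at -0.26, whose 4 probe sets span 0, to the integrin activator gene FERMT3 at 0.58. Of 16 further STRIPAK genes 10 were lower and 6 higher, with a median of -0.03, from the kinase gene STK26 at -0.43 to FGFR1OP2 at 0.16.

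**Figure D3:**
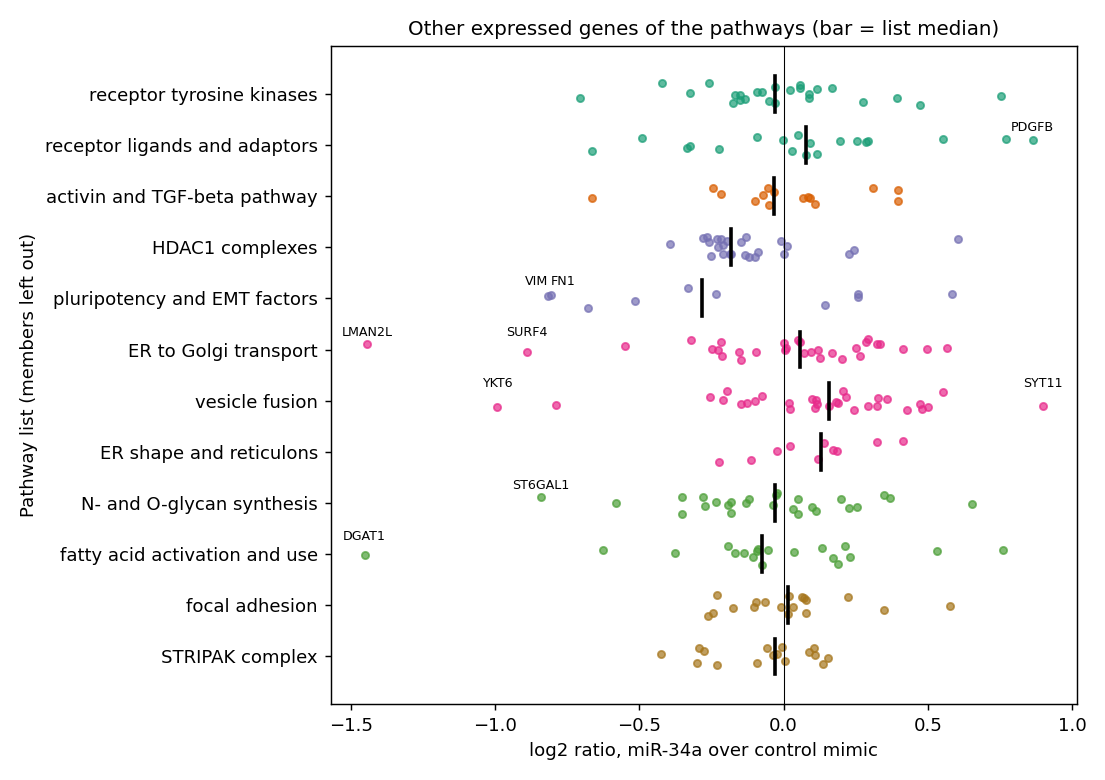
Log2 ratio (miR-34a over control mimic) of the other expressed genes in 12 pathway lists, with the reported targets left out, coloured by the role of the targets in that pathway, with a black bar at each list's median. HDAC1 complexes lie mostly below 0, with a median of -0.18, and vesicle fusion genes mostly above, with a median of 0.16.

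Different probe sets of a gene could be set against each other. Of the 28 expressed targets 15 had 2 or more expressed probe sets. In 8 of these 15 all probe sets had the same sign, a share of 53.3%, where it was 54.0% of the 5494 genes of that kind. Of the 8, 5 were lower (YY1, PEA15, LMAN1, GALNT7 and RTN4) and 3 higher (VEGFA, ACSL1 and PDGFRA). The other 7 were mixed, FOXP1, ACSL4, SAR1A, FUT8, VAMP2, MET and NAV1. Probe sets on one array share its RNA and its labelling, so their agreement covers no difference between cultures.

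**Figure D4:**
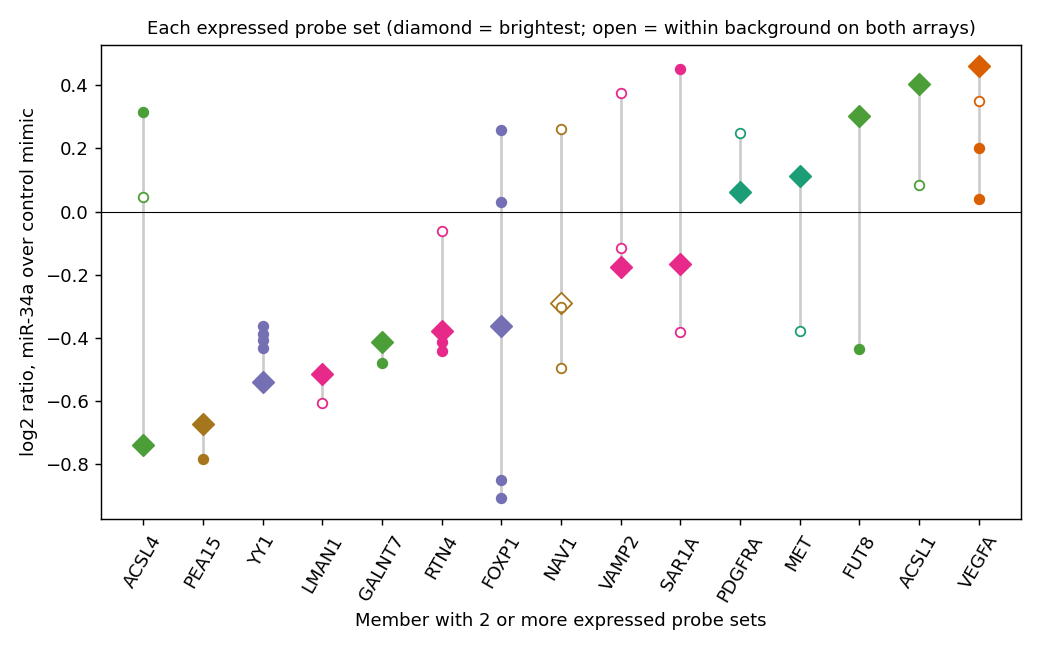
Log2 ratio (miR-34a over control mimic) of every expressed probe set of the 15 targets with 2 or more, with diamonds for the brightest and open symbols for probe sets within background on both arrays. YY1, PEA15, LMAN1, GALNT7 and RTN4 lie wholly below 0, while ACSL4, FOXP1, SAR1A and FUT8 span 0.

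Genes of the same families as the targets gave a second point of reference. Of 76 such relatives 47 were expressed, 20 lower and 27 higher, with a median of 0.02. In 21 families with an expressed target and an expressed relative, the target was below every relative in 13 and above every relative in 5 on the brightest probe sets. Not all of these rest on a clear direction. SAR1A, VAMP2 and NAV1 among the 13, and FUT8 and FOXP1 among the 5, have probe sets on both sides of 0. With means over all expressed probe sets the counts were 15 and 4, and FUT8 moved from above its relative FUT4 to below it. Leaving out mixed targets and those not above background on both arrays left 7 of the 13 and 2 of the 5. The 7 were YY1, UBP1, HDAC1, RTN4, GALNT7, VCL and PEA15, and the 2 were VEGFA and STRN3. The relatives were not screened in this way. ZFP42, the only expressed relative of YY1, read within background (44.0 and 50.5). CTNNA1, the relative of VCL, has probe sets from -0.23 to 0.08, and STRN, a relative of STRN3, from -0.48 to 0.23. The 7 include HDAC1 at -0.48, against HDAC2 at -0.21 and HDAC3 at -0.03. HDAC8, a further relative that read within background, had 0.05, with another probe set at -0.41. GALNT7, at -0.41, stood against values from -0.18 (GALNT11) to 0.11 (GALNT2). Also among the 7 are RTN4 at -0.38, against RTN3 at -0.11 and RTN2 at 0.41, and PEA15 at -0.67, against the other death effector domain genes FADD and DEDD at 0.02 each. CD274, SNAI1 and SOX2, also among the 13, read within background. Some relatives were lower than the reported target. LMAN2L, a homolog of LMAN1, read 154.5 and 47.7 (-1.45), with the second signal within background. TPD52L1, a homolog of TPD52, went from 1033 to 479 (-1.10), with a second probe set at -1.003, while TPD52 itself was higher. STX3, a plasma membrane syntaxin like STX1A, read 439.8 and 250.0 (-0.79), with a second probe set at -0.24. RRAS2 read 449.7 and 257.8 (-0.78), on 3 probe sets between -0.78 and -0.58. Its log2 ratio is next to that of RRAS (-0.77), but RRAS reads within background and is at -0.94 with 0.25 times the pseudocount, so the order of these paralogs is not read. Among relatives of targets that were not expressed, SYT11, of the SYT1 family, read 41.2, within background, and 90.6 (0.90), and its second probe set gave 0.06.

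**Figure D5:**
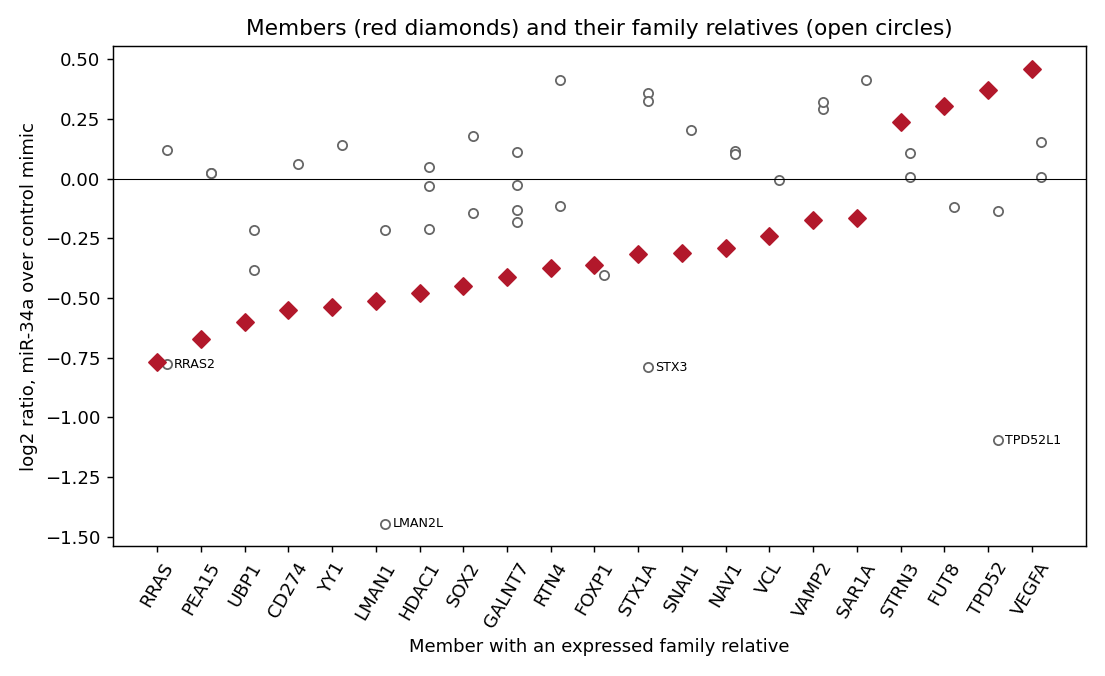
Log2 ratio (miR-34a over control mimic) of each of the 21 expressed targets that have an expressed relative of the same family (red diamonds) and of those relatives (open circles, placed just to the right). The diamond is below all circles of its family in 13 of 21, among them SAR1A, VAMP2 and NAV1, whose probe sets disagree in sign, and LMAN2L (-1.45), TPD52L1 (-1.10), STX3 (-0.79) and RRAS2 (-0.78) are the relatives that lie lowest.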

How the data were processed

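The deposited table gives an intensity per probe set and array, in linear arbitrary units, with a floor of 1. Per the labels' protocols, 15 µg of Trizol-extracted total RNA was turned into biotinylated cRNA by the Affymetrix method. How the authors summarised, background-corrected and scaled the signals is not stated in the labels or the table, which matters most for dim probe sets. The table has no columns of other samples.

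Values were taken to log2(intensity + 14.9), with the 25th percentile of the table as pseudocount. It understates the change of dim genes. Ratios were centred on the median of expressed genes (0.0090). Probe sets with several gene symbols (1801) were left out of the gene values. They and probe sets without a symbol stayed in the filter's median and among the neighbours. Gene positions are left out, since the probe sets come with no genome build. With 1 array per group no test was made. Genes were counted by size and placed among the 1000 probe sets nearest in mean level. The genes, lists and roles were chosen with earlier results of these data known. All 37 targets are named. Of each list the lowest and highest gene above background on both arrays are named, with any gene at 2-fold and above background on either, and any relative at 1.5-fold. A few genes outside that rule (PGF, VEGFB and members of the HDAC, GALNT, RTN and death effector families) were named as comparators after their values were seen. Alternatives changed the pseudocount, filter, centring, normalization, probe sets, threshold and number of neighbours. A check on simulated data recovered the median size of the changes put in. Those changes were larger than any of the targets showed, and the noise was the same at every signal level. The check therefore does not cover changes of the size reported here. Python 3.11.15, NumPy 2.4.6, pandas 2.3.3, statsmodels 0.14.6 and matplotlib 3.10.9 were used.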

Additional observations from a re-analysis of the deposited data

How the results depend on the processing

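Of the 28 expressed targets, 24 kept the sign of their log2 ratio under every alternative that gave a value. The 4 that did not changed with the choice of probe set and not with scaling. The count of 24 was in part fixed in advance. A change of pseudocount cannot turn the sign of a ratio, apart from the small centring offset. For the 13 targets with 1 expressed probe set, a mean over probe sets is the same value. As means over all expressed probe sets FUT8 became -0.066, MET -0.13 and VAMP2 0.029, and without the _s_at, _x_at and _a_at classes VAMP2 became 0.38 and ACSL4 0.051. Without those classes FOXP1 moved to -0.90 and RTN4 to -0.06, the latter because only its dim probe set is left. RRAS, within background, was -0.44 with 4 times the pseudocount. The median of the expressed targets, -0.32, was -0.22 with 4 times the pseudocount, -0.37 with 0.25 times it and -0.37 when the filter was raised to the 75th percentile. The number at least 2-fold lower, 0, was 1 with 0.25 times the pseudocount (TMEM109), and 5 passed 1.5-fold. The number below 0, 20 of 28, was 13 with the filter raised to that percentile, 13 without those classes and 13 with a filter at the highest bacterial control signal. It was also 13, with a median of -0.36, among genes above that signal on both arrays; these last 2 settings were chosen after seeing the data. Fewer targets were expressed under each of these 4 settings (17, 18, 20 and 19). Without a filter 27 of 37 were below 0. No paired analysis was possible because there is 1 array per group, and none could be left out for the same reason.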
